A study of Homo sapiens with 30 samples.

Results

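The genes described here are 9 genes of the YAP pathway in BEAS-2B cells: CCN2, CCN1, ANKRD1, AMOTL1, AMOTL2, AXL, LATS2, YAP1 and WWTR1. They were found by gene name among the array probes, where CCN2 carried its older name CTGF and CCN1 its older name CYR61, and 11 probes represented the 9 genes. In all, 32102 probes with 24541 gene names were well above background on every array of at least 1 group and were tested. CCN2 was chosen by its difference between pollen exposed and mock exposed cells at 55 min and 2h25 min. The other members were added for their known roles, with earlier results of these data known. Differences between the exposures at these 2 times are therefore described without a test. Tests between times that use these arrays are not independent of the choice.

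BEAS-2B is an immortalised human bronchial epithelial cell line, grown here on coated inserts at the air-liquid interface. A dose of 10 mg of birch pollen grains was dispersed over them by pressurised air in a sedimentation chamber, and the control was a mock exposure that the labels call air. In the mock exposure a mesh held the pollen back. RNA was collected early, at 10 min and 55 min, and later, at 2h25 min, 6h50 min and 24 h, with 3 arrays for each exposure and time (30 arrays in all), and experiments were repeated on different days. All groups were of the same line, and the labels name no genetic difference between them. The line is 1 immortalised cell type, and the chamber holds no immune or stromal cells.

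YAP and TAZ are coactivators that shuttle between cytoplasm and nucleus and switch on genes through TEAD transcription factors. The kinases LATS1 and LATS2 phosphorylate them and keep them in the cytoplasm when the Hippo pathway is active. Mechanical load, cell spreading and several receptors act on this pathway in epithelia, and CCN2 and CCN1 are among its most used readouts.

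Upstream bases of 3 members are shown because TEAD factors bind the word GGAATG, which was searched on both strands, and these promoters hold it. The sequences are the 250 bases before the RefSeq start (GRCh38.p14), 5′ to 3′ on the gene's strand, with every match in capitals (no match overlaps another). The first lies at chr6:131951373-131951622 (minus strand), the second at chr10:90921088-90921337 (minus strand) and the third at chr11:102110197-102110446 (plus strand).
CCN2: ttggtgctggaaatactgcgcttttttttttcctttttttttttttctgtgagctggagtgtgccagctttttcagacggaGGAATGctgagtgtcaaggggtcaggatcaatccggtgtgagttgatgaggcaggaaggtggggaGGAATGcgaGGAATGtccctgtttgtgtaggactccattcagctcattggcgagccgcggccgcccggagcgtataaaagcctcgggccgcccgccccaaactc
ANKRD1: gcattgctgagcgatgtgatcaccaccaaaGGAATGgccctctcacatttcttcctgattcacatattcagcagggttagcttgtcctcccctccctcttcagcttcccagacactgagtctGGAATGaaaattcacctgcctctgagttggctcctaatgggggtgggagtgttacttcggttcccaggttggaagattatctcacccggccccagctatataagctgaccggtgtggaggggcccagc
YAP1: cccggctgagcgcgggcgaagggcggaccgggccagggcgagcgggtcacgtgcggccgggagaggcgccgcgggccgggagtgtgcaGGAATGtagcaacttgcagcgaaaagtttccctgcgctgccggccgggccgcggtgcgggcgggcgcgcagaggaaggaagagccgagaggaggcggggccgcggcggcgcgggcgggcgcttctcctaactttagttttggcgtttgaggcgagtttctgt
The CCN2 sequence held 3 matches, which began 169, 104 and 95 bases before the start. The ANKRD1 sequence held 2 matches, at 220 and 128 bases, and the YAP1 sequence held 1, at 162 bases. Of 35116 RefSeq promoters of the same length, 11.9% held at least 1 match on either strand, 0.94% at least 2 and 0.0826% at least 3. AMOTL2 and AXL each have 2 starts in the table, and 1 of each held a single match. The upstream bases of AMOTL1, LATS2 and WWTR1 held none, and 8 of the 9 members were in the table (all but CCN1). A match is a run of letters and was not tested for binding here.

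Values are given as log2 of the background-corrected spot signal relative to the 75th percentile of each array. That percentile ranged from 578 to 2111 intensity units, and 47.0% to 62.6% of spots were well above background. All main member probes were well above background on 30 of 30 arrays. The arrays lay on 5 slides. All 6 arrays of 6h50 min lay on a slide of their own, scanned in another year, so 6h50 min and that slide cannot be told apart in any comparison with another time. Pollen replicate 1 at 55 min was hybridised alone to an array of another design, which shares 33873 probe sequences. Of the 6 epithelial markers, KRT8, KRT18, KRT5, EPCAM and CDH1 were above background on 30 of 30 arrays and TP63 on 21. The mesenchymal markers VIM, CDH2, PDGFRB and DCN were likewise above background on 30 arrays, as were the immune markers PTPRC and CD14, while the immune marker CD3E was on 17. The endothelial marker PECAM1 was above background on 0 arrays and VWF on 28 of the 29 that hold its probe. In a bulk RNA sample, fewer cells of a type and less RNA per cell cannot be told apart.

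CCN2 encodes a secreted matricellular protein that regulates cell adhesion, matrix production and growth factor signalling. Its probe lies at chr6:132270130-132270189 in hg19, the build of the array annotation. At 10 min, CCN2 was at 0.61, 0.91 and 0.94 in the 3 mock arrays and at 0.58, 0.70 and 1.01 in the pollen arrays. The 2 groups overlapped at this time. At 55 min the mock arrays stood at 1.82, 2.06 and 2.12, and the pollen arrays at 2.96, 2.79 and 2.68. At 2h25 min the mock arrays were at 0.78, 0.77 and 0.83, and the pollen arrays at 2.33, 2.30 and 2.07. Every pollen array was thus above every mock array at both times, and by 2h25 min mock exposed cells were near their level at 10 min while pollen exposed cells were not. At 6h50 min the values were -0.88, -0.74 and -0.85 in mock exposed cells and -0.81, -0.67 and -0.62 in pollen exposed cells. At 24 h they were -1.90, -1.85 and -1.59 after mock exposure and -2.25, -2.12 and -2.17 after pollen. The groups overlapped at 6h50 min, and at 24 h every pollen array was below every mock array.

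**Figure D1:**
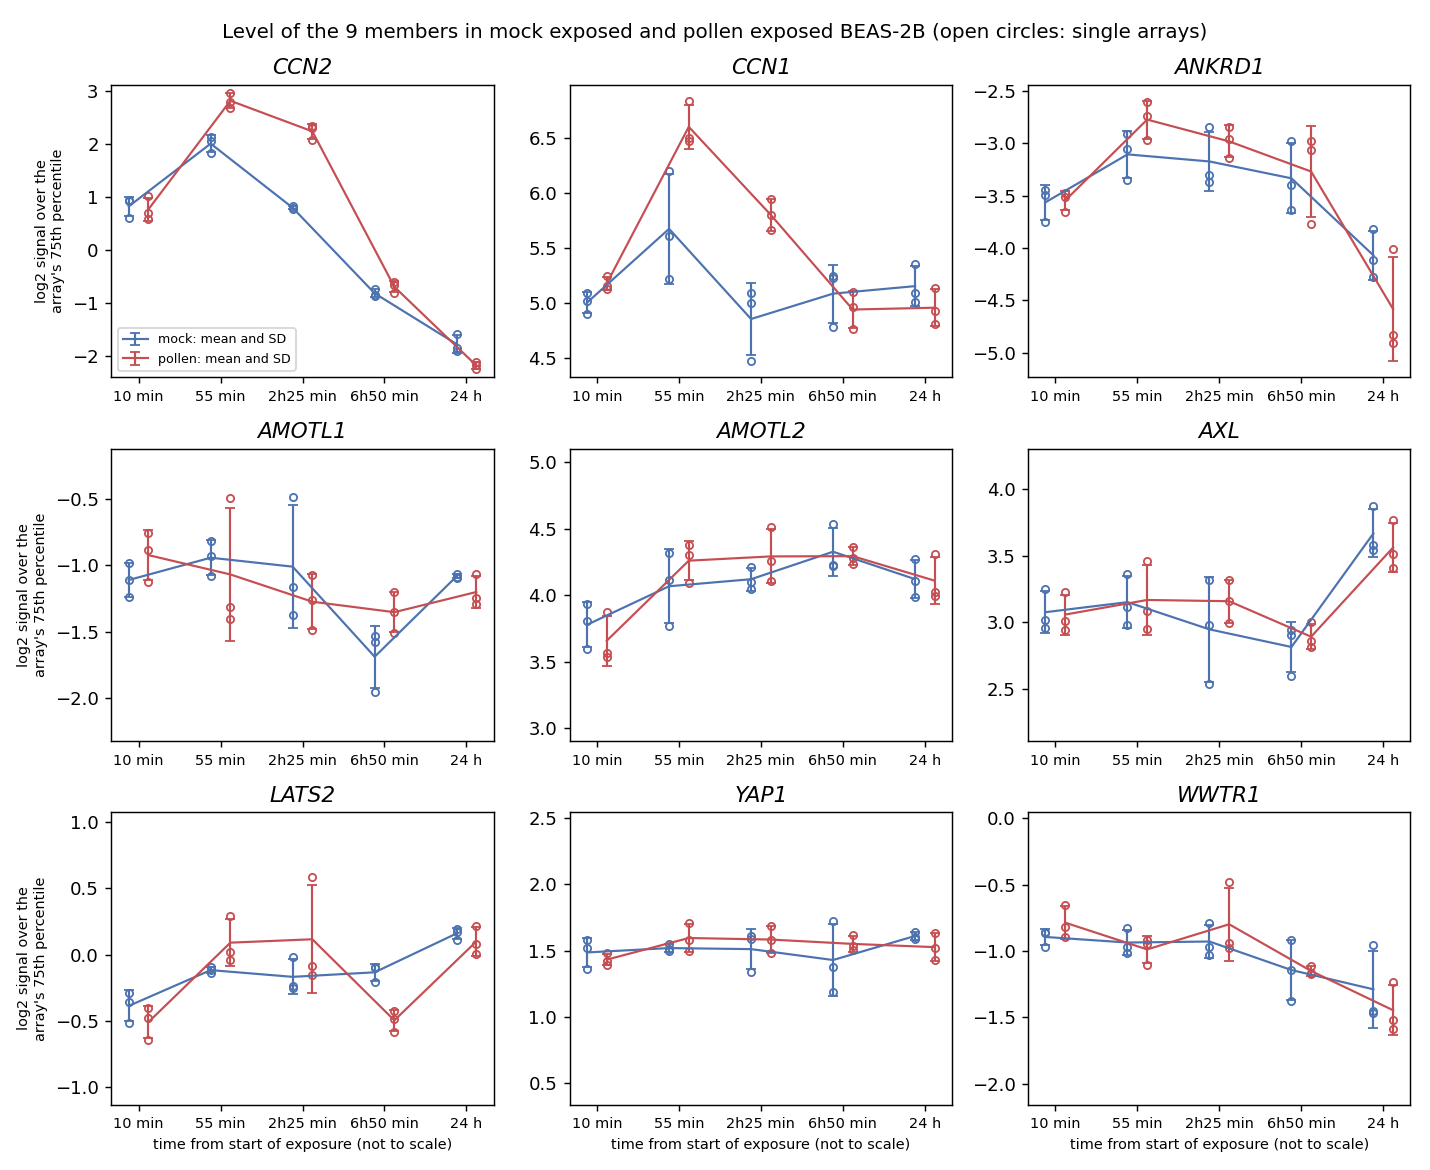
Level of each member (log2 signal over the array's 75th percentile, y axis, whose range differs between panels) at the 5 times (x axis, evenly spaced), with mock in blue and pollen in red. Open circles are single arrays, lines join group means and bars are the SD of 3 arrays; CCN2 reached 2.81 at 55 min after pollen and 2.00 after mock exposure, then lay below its 10 min level in both at 24 h.

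Ordered by group mean, CCN2 was highest at 55 min after pollen (2.81 ± 0.141, SD, n = 3). It was next at 2h25 min after pollen (2.23 ± 0.140) and at 55 min after mock exposure (2.00 ± 0.158), and these groups overlapped. A second set of overlapping groups comprised mock at 10 min (0.82 ± 0.184), mock at 2h25 min (0.79 ± 0.0326) and pollen at 10 min (0.76 ± 0.222). The 6h50 min groups followed at -0.70 ± 0.10 after pollen and -0.82 ± 0.0736 after mock exposure. The lowest were the 24 h groups, at -1.78 ± 0.166 after mock exposure and -2.18 ± 0.0641 after pollen.

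The pollen minus mock difference of CCN2, which chose the gene, was 0.81 (standard error 0.12, 1.75-fold) at 55 min and 1.44 (standard error 0.12, 2.71-fold) at 2h25 min. The value at 55 min was 0.40 when the percentile was taken over each array's own probes and 0.39 with no scaling of the arrays. The median of all probes differed by -0.37 and -0.43 under these 2 settings, beside -0.01 under the main scaling. Slide 4, which held 2 arrays of each exposure at both times, gave 0.65 at 55 min and 1.54 at 2h25 min. Slide 5 held 1 array of each exposure at 2h25 min and gave 1.24. The times that did not enter the choice can be tested. In the limma test, adjusted over all 32102 probes, CCN2 differed by -0.06 at 10 min (adjusted p = 1), by 0.12 at 6h50 min (adjusted p = 0.961) and by -0.40 at 24 h (adjusted p = 0.795). The standard error was 0.12 at each time. The 24 h difference was lower in 3 of 3 same-numbered pairs and had an unadjusted p of 0.00289, but did not pass the adjustment over all probes. None of the 9 members was called at 10 min, 6h50 min or 24 h, against 0%, 0.0436% and 0.00312% of all probes. The counts of members at an unadjusted p under 0.05 were 0, 1 and 2. Of all 32102 probes, 457 were higher and 130 lower at that threshold at 10 min, 1617 and 771 at 6h50 min, and 822 and 336 at 24 h.

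CCN1 encodes a related matricellular protein that binds integrins and is typically made early after growth factor or mechanical stimuli (probe at chr1:86048953-86049012 in hg19). At 10 min it was at 4.90, 5.09 and 5.02 in mock exposed cells and at 5.25, 5.16 and 5.13 in pollen exposed cells. At 55 min the mock arrays spread over 5.21, 5.61 and 6.20, and the pollen arrays were at 6.47, 6.50 and 6.83. At 2h25 min the mock values were 5.00, 4.47 and 5.08 and the pollen values 5.95, 5.80 and 5.66. The pollen arrays lay above the mock arrays at these 3 times without overlap, by 0.17 (standard error 0.195) at 10 min, which was not called (limma adjusted p = 1), by 0.93 (1.90-fold) at 55 min and by 0.95 (1.93-fold) at 2h25 min. The 55 min difference was 0.51 both with no scaling and with the percentile taken over each array's own probes. The median of all probes differed by -0.43 and -0.37 under these settings. Within slide 4 the differences were 0.76 at 55 min and 1.14 at 2h25 min, and the pair on slide 5 gave 0.57. At 6h50 min the groups overlapped, with mock at 5.25, 5.22 and 4.78 and pollen at 5.09, 4.96 and 4.76. At 24 h they overlapped again, at 5.09, 5.36 and 5.01 against 4.93, 5.13 and 4.80. The tested differences were -0.15 at 6h50 min (adjusted p = 0.983) and -0.20 at 24 h (adjusted p = 1).

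Ordered by mean, CCN1 was highest at 55 min after pollen (6.60 ± 0.201, SD, n = 3) and did not overlap there with any other group. It was then at 5.80 ± 0.145 at 2h25 min after pollen and at 5.67 ± 0.498 at 55 min after mock exposure, which overlapped. The other 7 groups lay between 4.85 ± 0.331 (mock at 2h25 min) and 5.18 ± 0.0615 (pollen at 10 min). CCN2 and CCN1 differed in their late course. CCN2 means at 24 h were below those of all earlier times in both exposures, whereas CCN1 means at 6h50 min and 24 h were between 4.94 and 5.15, near the 10 min means of 5.00 and 5.18.

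**Figure D2:**
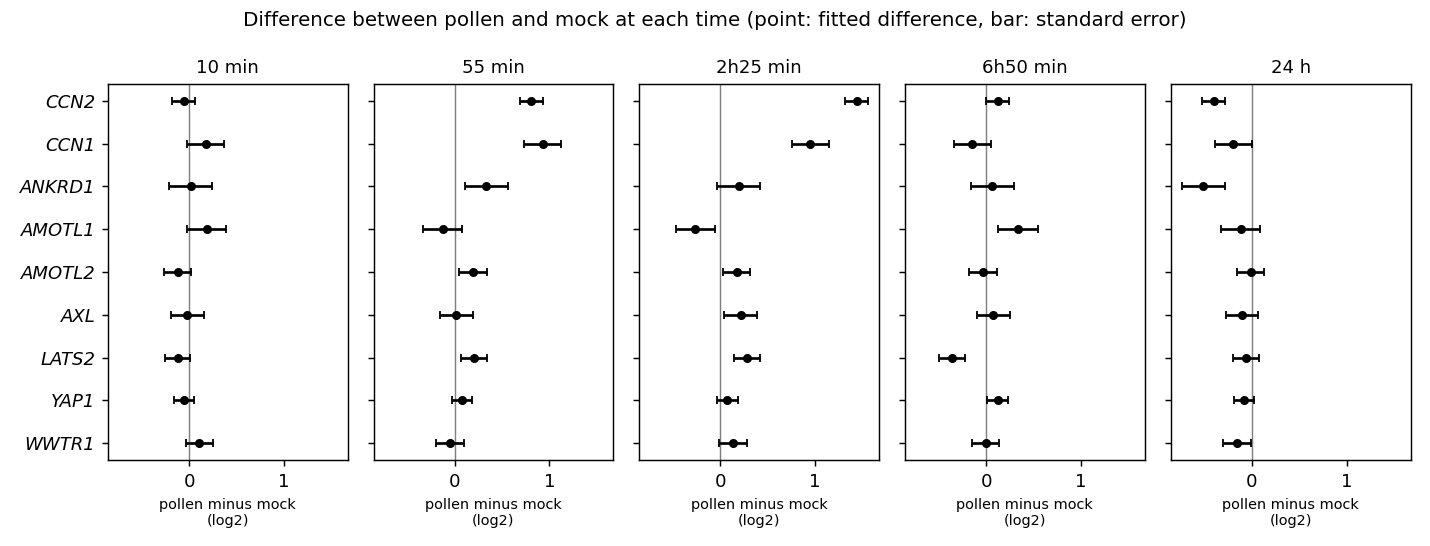
Pollen minus mock difference of the 9 members (log2, x axis) in a panel for each time, where points are the fitted differences and bars their standard errors. CCN2 (0.81 and 1.44) and CCN1 (0.93 and 0.95) stand to the right at 55 min and 2h25 min, and CCN2 lies at -0.40 at 24 h.

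AXL is a receptor tyrosine kinase and a YAP target in many cell types. It differed between pollen and mock by -0.11 to 0.21 over the 5 times, with a standard error of 0.172. The mock arrays were at 2.60, 2.90 and 2.94 at 6h50 min and at 3.88, 3.55 and 3.58 at 24 h. The pollen arrays went from 2.82, 2.86 and 3.00 to 3.77, 3.51 and 3.41. The 24 h values lay above all 6h50 min values in both exposures.

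ANKRD1 encodes an ankyrin repeat protein with roles in the nucleus and at the cytoskeleton. It was dim, although above background on 30 of 30 arrays. The pollen minus mock difference was 0.33 at 55 min and 0.19 at 2h25 min (standard error 0.229), and the groups overlapped at both times. At 24 h the mock arrays were at -4.28, -3.82 and -4.12 and the pollen arrays at -4.84, -4.01 and -4.91. This difference of -0.51 was lower in 3 of 3 pairs, but the groups overlapped and it was not called (unadjusted p = 0.0352, adjusted p = 1). With arrays weighted by their estimated precision it was -0.79 and was called (adjusted p = 0.048, where 298 probes were called in all), but not with weights estimated gene by gene.

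LATS2, the kinase that restrains YAP and TAZ and is itself a YAP target, was at -0.14, -0.12 and -0.10 after mock exposure and at 0.29, 0.02 and -0.04 after pollen at 55 min. The groups did not overlap, and the difference was 0.21 (standard error 0.136). The value of 0.29 came from the array of the other design, and slide 4, with 2 arrays of each exposure, gave 0.10. At 2h25 min the groups overlapped, and the pollen arrays included 1 high value of 0.58 beside -0.15 and -0.09. At 6h50 min the mock arrays were at -0.10, -0.09 and -0.21 and the pollen arrays lower, at -0.48, -0.42 and -0.58. This difference of -0.36 had an unadjusted p of 0.0145 and was not called after adjustment (adjusted p = 0.444). With array weights it was -0.38 and was called (adjusted p = 0.0471, with 786 probes called in all), and again not with weights estimated gene by gene.

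AMOTL1 and AMOTL2 are angiomotin-like scaffolds that bind YAP at cell junctions. AMOTL2 differed between pollen and mock by 0.19 at 55 min and 0.17 at 2h25 min (standard error 0.144), with overlapping groups at each. Pollen was higher in 3 of 3 same-numbered pairs at both times. At 55 min, however, not all same-numbered arrays deviated alike, and pair 1 set arrays of different slides and designs against each other. AMOTL1 differed by -0.13 and -0.26 at these times (standard error 0.207), but the gene's other probe gave 0.04 and 0.09 (standard error 0.108), so its 2 probes lay on either side of 0. At 6h50 min the mock arrays of AMOTL1 were at -1.96, -1.53 and -1.58 and the pollen arrays at -1.51, -1.35 and -1.20. The difference of 0.34 was not called (adjusted p = 0.838), and the other probe gave 0.18. The value of -1.96 came from an array with a dim area that covered the AMOTL1 probe.

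YAP1, which encodes the coactivator YAP, had the narrowest range of group means of the 9 members. Its means over the 10 groups lay between 1.43 and 1.61, and the pollen minus mock differences were between -0.08 and 0.12 (standard error 0.108). The lowest mean, of mock at 6h50 min, had an SD of 0.272, and the largest difference was that of 6h50 min. The YAP1 probe lay in a dim area on 1 array. WWTR1, which encodes TAZ, differed by -0.16 to 0.13 (standard error 0.145). Its group means ran from -0.79 at 10 min after pollen to -1.45 at 24 h after pollen. A dimmer WWTR1 probe differed by -0.24 to 0.26, with a standard error of 0.336.

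Changes between times were compared within mock exposed and within pollen exposed cells. The arrays of 55 min and 2h25 min also entered the choice of CCN2, so CCN2 was left out of the count in comparisons that use them. The other members were chosen with earlier results of these data known, so their calls there are not independent of the choice. The CCN2 differences there were as follows. In mock exposed cells CCN2 was higher by 1.18 at 55 min than at 10 min (standard error 0.12), lower at 2h25 min than at 55 min by 1.21 (log2 difference -1.21), and differed by -1.61 from 2h25 min to 6h50 min. In pollen exposed cells the same steps were 2.05, -0.58 and -2.93. The mock cells alone thus showed a 2.27-fold higher CCN2 level at 55 min than at 10 min, without overlap of arrays. On slide 3, which held the 3 mock arrays of 10 min and 1 of 55 min, the difference was 1.00.

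From 10 min to 55 min, 0 of the 8 other members were called in mock exposed cells by limma, where 0.187% of all probes were called in either direction. CCN1, at 0.67 (standard error 0.195, adjusted p = 0.188), was the only 1 of the 8 with an unadjusted p under 0.05. In pollen exposed cells 3 of 8 rose over the same interval, where 0.421% of all probes were called higher. CCN1 rose by 1.43 (standard error 0.195, 2.69-fold, adjusted p = 0.000702), AMOTL2 by 0.60 (standard error 0.144, adjusted p = 0.0481) and LATS2 by 0.60 (standard error 0.136, adjusted p = 0.0372). No slide held pollen arrays of both times, and with slide as a block the values were 0.80, 0.24 and 0.47, none of them called (adjusted p = 1 for each). The AMOTL2 and LATS2 calls were also lost when 1 array was left out: AMOTL2 kept its call only without pollen replicate 3 of 10 min (0.71), and LATS2 only without pollen replicate 3 of 55 min (0.66). Without the other arrays AMOTL2 lay between 0.54 and 0.69 and LATS2 between 0.50 and 0.65. The CCN1 call was kept in all 6 cases, at 1.31 to 1.49. Whether the steps differ between pollen and mock was not tested, as these arrays chose the gene.

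From 55 min to 2h25 min, 0 of 8 were called in either exposure, where 0.0156% of all probes were called in mock and 0.202% in pollen exposed cells. CCN1 alone had an unadjusted p under 0.05 in each, at -0.82 in mock (adjusted p = 0.344) and -0.80 in pollen (adjusted p = 0.111). From 2h25 min to 6h50 min, AMOTL1 was the 1 member of 8 called in mock exposed cells, where it fell by 0.68 (standard error 0.207, adjusted p = 0.016), against 22.5% of all probes called lower. The call was lost without mock replicate 2 of 2h25 min (-0.42), without mock replicate 1 of 6h50 min (-0.55) and with the spots in dim areas left out (-0.55, adjusted p = 0.0726). The other AMOTL1 probe was called lower as well in mock exposed cells (-0.64, standard error 0.108, adjusted p = 0.000219), and also in pollen exposed cells (-0.54, adjusted p = 0.000819), where the brighter probe gave -0.08 (adjusted p = 0.8). In pollen exposed cells CCN1 fell by 0.86 (standard error 0.195, adjusted p = 0.00231) and LATS2 by 0.61 (standard error 0.136, adjusted p = 0.0021), which is 2 of 8 against 19.9% of all probes. The median of all probes shifted by -0.15 in mock and -0.11 in pollen exposed cells over this interval, and the slide changed with it.

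From 6h50 min to 24 h, 4 of 9 members were called in each exposure. In mock exposed cells CCN2 fell by 0.96 (standard error 0.12, adjusted p = 3.89e-06) and ANKRD1 by 0.74 (standard error 0.229, adjusted p = 0.0137), against 15.9% of all probes called lower. AXL rose by 0.86 (standard error 0.172, adjusted p = 0.000506) and AMOTL1 by 0.61 (standard error 0.207, adjusted p = 0.0232), against 24.7% called higher. In pollen exposed cells CCN2 fell by 1.48 (standard error 0.12, adjusted p = 5.49e-08) and ANKRD1 by 1.32 (standard error 0.229, adjusted p = 0.000163), against 14.5% called lower. AXL rose by 0.67 (standard error 0.172, adjusted p = 0.0043) and LATS2 by 0.59 (standard error 0.136, adjusted p = 0.0019), against 21.7% called higher. The median of all probes shifted by 0.14 in mock and 0.12 in pollen exposed cells. The AMOTL1 call was lost without mock replicate 1 of 6h50 min (0.47) and without each mock array of 24 h (0.61 without replicate 1, 0.61 without replicate 2 and 0.60 without replicate 3). The ANKRD1 call in mock exposed cells was lost without replicate 1 of 6h50 min (-0.56) and without replicate 1 of 24 h (-0.63). The other AMOTL1 probe was also called in mock exposed cells (0.52, adjusted p = 0.00065). With no scaling of the arrays, CCN2 in mock exposed cells came to -0.22 (adjusted p = 0.437) and ANKRD1 to -0.00148 (adjusted p = 0.997), and neither was called. Under that setting the median of all probes shifted by 0.87 in mock exposed cells.

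Because 6h50 min shares no slide with another time, 24 h was also set against 2h25 min, a comparison added after the arrays had been examined. In mock exposed cells CCN2 differed by -2.57, and 2 of the 8 other members were called. ANKRD1 fell by 0.90 (standard error 0.229, adjusted p = 0.00483), where 14.9% of all probes were called lower, and AXL rose by 0.72 (standard error 0.172, adjusted p = 0.00277), where 12.5% were called higher. In pollen exposed cells CCN2 differed by -4.41 (21.3-fold) and 3 of 8 fell, where 11.8% of all probes were called lower. They were ANKRD1 (-1.60, standard error 0.229, adjusted p = 3.15e-05), CCN1 (-0.85, standard error 0.195, adjusted p = 0.00291) and WWTR1 (-0.65, standard error 0.145, adjusted p = 0.00226). The dimmer WWTR1 probe gave -0.58 and was not called (adjusted p = 0.239). Slide 5 held replicate 3 of 2h25 min and the 3 arrays of 24 h of each exposure. On that slide CCN2 differed by -2.61 in mock and -4.25 in pollen exposed cells, ANKRD1 by -0.77 and -1.44, and CCN1 by 0.07 and -0.70. The second AMOTL1 probe was called lower in pollen exposed cells (-0.33, adjusted p = 0.0314), where the brighter probe was at 0.07.

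Markers of cell types changed over the same interval. Of the 6 epithelial markers 4 were called lower and 1 higher in each exposure. Of all probes, 14.9% were called lower and 12.5% higher in mock exposed cells. In pollen exposed cells 11.8% were called lower, and 3604 of 32102 probes higher. KRT5, a basal cell keratin, fell by 2.97 in mock (limma adjusted p = 5.33e-07) and fell by 2.51 in pollen exposed cells (adjusted p = 6.65e-06). TP63, a basal cell transcription factor, fell by 1.64 (adjusted p = 0.00427) and fell by 1.52 (adjusted p = 0.0093), in that order, but was above background on only 21 of 30 arrays. EPCAM rose by 0.81 (adjusted p = 0.0022) and 0.82 (adjusted p = 0.00269). Of the 4 mesenchymal markers 3 were called lower in each exposure, with medians of -1.04 and -0.92 over the list, beside -0.07 and -0.02 over all probes. Of the 3 immune markers 1, CD14, was called lower in mock (-0.51, adjusted p = 0.037) and 0 in pollen exposed cells, and VWF was not called in either. Their part in the changes of the members was not tested.

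Whether the pollen effect itself changed was tested between the times that did not choose CCN2. From 10 min to 6h50 min and from 6h50 min to 24 h, 0 of 9 members were called by limma, against 0% of all probes in both, and 0 and 1 members had an unadjusted p under 0.05. That 1 was CCN2, whose pollen minus mock difference was lower by 0.53 at 24 h than at 6h50 min (log2 difference -0.53, standard error 0.17, unadjusted p = 0.00532, adjusted p = 0.798). Of all probes, 804 were higher and 565 lower at that threshold in the first comparison, and 715 and 940 in the second.

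The rest of the pathway was followed in 4 lists. The Hippo list held 13 kinases and adaptors, all tested. It comprised the core kinases STK3 and STK4 with their scaffold SAV1, LATS1 with its cofactors MOB1A and MOB1B, and the upstream proteins NF2, WWC1, FRMD6, AMOT, TAOK1, MAP4K4 and PTPN14. At 55 min 13 of 13 were higher after pollen than after mock exposure, with a median of 0.12, where 48.5% of all probes were higher and their median was -0.01. Pollen replicate 1 at this time was of another array design, and values within slide 4 are not given for this list. The share over all probes also counts probes that were not above background on every array, as these 13 were. At 2h25 min 12 of 13 were higher, with a median of 0.15 against -0.03 over all probes. The highest was FRMD6, a FERM domain protein of the upstream pathway, at 0.49 (standard error 0.107). These differences were small, and at 10 min, 6h50 min and 24 h 0 of 13 were called by limma, with medians of -0.04, -0.06 and 0.03. Lists outside the pathway also leaned higher at 2h25 min. There 6 of 6 epithelial markers (median 0.09), 3 of 4 mesenchymal markers (0.07) and 2 of 3 immune markers were higher after pollen, while VWF was lower (-0.78). At 55 min these counts were 3 of 6, 2 of 4 and 1 of 3, and VWF was at -0.28.

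TEAD1 to TEAD4 are the DNA-binding partners of YAP, and VGLL proteins compete with YAP for them. Of 7 genes in this list 6 were tested, since VGLL1 was above background on 1 array only. The medians of the pollen minus mock differences were between -0.09 and 0.05 over the 5 times, and 0 of 6 were called at 10 min, 6h50 min and 24 h. Between 2h25 min and 24 h TEAD4 fell in mock (-0.68, standard error 0.105, adjusted p = 4.12e-05) and in pollen exposed cells (-0.53, standard error 0.105, adjusted p = 0.000849), while TEAD3 and VGLL4 rose in both. VGLL4 rose by 0.50 in mock (adjusted p = 0.00809) and by 0.40 in pollen exposed cells (adjusted p = 0.0361).

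Of 17 other YAP target genes 15 were tested, since the probes of CRIM1 and FOXF2 were too dim. This list was chosen with earlier results of these data known, and it holds F3, which the study named as up-regulated at 2h25 min. At 55 min 11 of 15 were higher after pollen, with a median of 0.06, where 48.5% of all probes were higher. At 2h25 min 13 of 15 were, with a median of 0.06 where 41.6% of all probes were higher. The largest differences at 2h25 min were those of F3, tissue factor, at 0.77 (standard error 0.14), and TGFB2, a growth factor, at 0.60 (standard error 0.202). F3 was already 0.40 higher at 55 min, and NUAK2, a kinase, was 0.33 higher at 55 min and 0.30 at 2h25 min. BIRC5, the mitotic protein survivin, differed by -0.01 and -0.04. At 10 min, 6h50 min and 24 h 0 of 15 were called. At 24 h 6 of 15 were higher, with a median of -0.12, where 49.1% of all probes were higher. From 10 min to 55 min in pollen exposed cells 1 of 15, NUAK2, rose (0.67, standard error 0.16, adjusted p = 0.0481), where 0.421% of all probes were called higher. No slide held pollen arrays of both times, and the 55 min arrays also entered the choice of CCN2. Values of NUAK2 with slide as a block or with arrays left out are not given here.

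From 2h25 min to 24 h 6 of 15 other targets fell and 1 rose in mock exposed cells, and 7 of 15 fell and 0 rose in pollen exposed cells. Of all probes, 14.9% were called lower and 12.5% higher in mock, and 11.8% lower in pollen exposed cells. The matrix protein gene CCDC80 fell in both, by 1.50 in mock (standard error 0.171, adjusted p = 1.49e-06) and by 1.35 in pollen exposed cells (adjusted p = 8.94e-06). IGFBP3, an insulin-like growth factor binding protein, fell by 1.06 in mock (adjusted p = 0.00516) and by 1.39 in pollen exposed cells (adjusted p = 0.000699). F3 was called in pollen exposed cells, where it fell by 0.97 (adjusted p = 3.72e-05). GADD45A, a stress-inducible cell cycle regulator, rose by 0.94 in mock exposed cells (adjusted p = 0.00304). Over all 15 genes the median was -0.16 in mock and -0.50 in pollen exposed cells, beside -0.07 and -0.02 over all probes.

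The CCN family has 4 further members. CCN4 was above background on 0 arrays and was not tested. CCN3, CCN5 and CCN6 were tested, and were above background on 29, 30 and only 9 of 30 arrays, in that order. None was called between pollen and mock at 10 min, 6h50 min or 24 h. CCN5, which unlike the other family members lacks the C-terminal domain, fell from 2h25 min to 24 h by 2.69 in mock (standard error 0.411, adjusted p = 3.93e-05) and by 2.42 in pollen exposed cells (adjusted p = 0.000187). Its pollen minus mock differences were -0.04 at 55 min and -0.07 at 2h25 min, where CCN2 differed by 0.81 and 1.44.

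**Figure D3:**
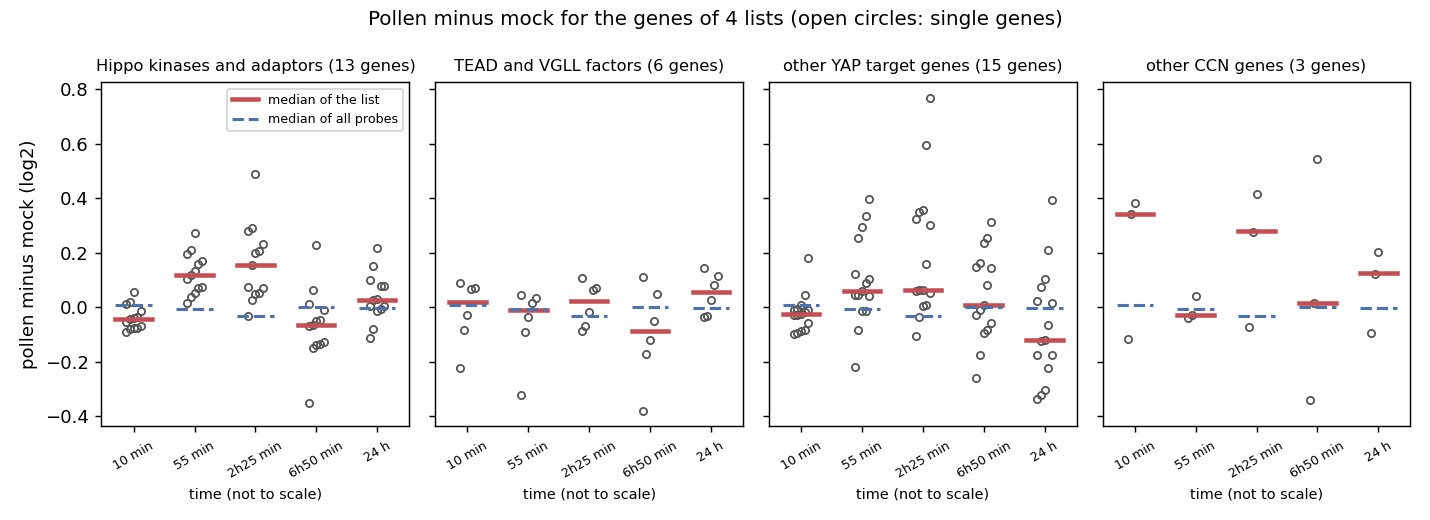
Pollen minus mock difference (log2, y axis) of the tested genes of the 4 lists at the 5 times (x axis, evenly spaced), where open circles are single genes, red bars the median of the list and dashed blue bars the median of all probes. The Hippo list has medians of 0.12 and 0.15 at 55 min and 2h25 min, and F3 and TGFB2 stand highest among the other YAP targets at 2h25 min.

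The genes whose 10 group means followed CCN2 or CCN1 most closely were named by Pearson correlation among 14914 genes measured above background on all arrays, as a description. The 10 points share arrays and slides with each other, and the means at 55 min and 2h25 min are those that chose CCN2. For CCN2 they were PDE4D, a phosphodiesterase of cyclic AMP (r = 0.984), EDN1, the precursor of endothelin-1 (r = 0.976), SERTAD4 (r = 0.973), STARD13 (r = 0.972), and DEPP1 (r = 0.971). Their group means ranged over 0.80 to 2.55, less than the 4.99 of CCN2. EDN1 went from -1.71 at 10 min to -0.79 at 55 min and -3.01 at 24 h after pollen, and from -1.62 to -1.23 and -3.34 after mock exposure. For CCN1 they were the kinase gene PLK2 (r = 0.940), NFKBIZ, an inhibitor-like partner of NF-kappa-B (r = 0.938), NUAK2 (r = 0.925), the transcription factor gene PRDM1 (r = 0.873) and the immediate early gene IER2 (r = 0.873). NFKBIZ stood at -2.68 at 55 min after pollen and at -3.83 after mock exposure, and by 2h25 min at -3.87 and -4.55. Among the members, group means of CCN2 correlated with those of ANKRD1 (r = 0.85), WWTR1 (r = 0.83) and CCN1 (r = 0.73), while r was near 0 for LATS2 (-0.02) and AMOTL2 (-0.05) and lowest for AXL (-0.38).

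**Figure D4:**
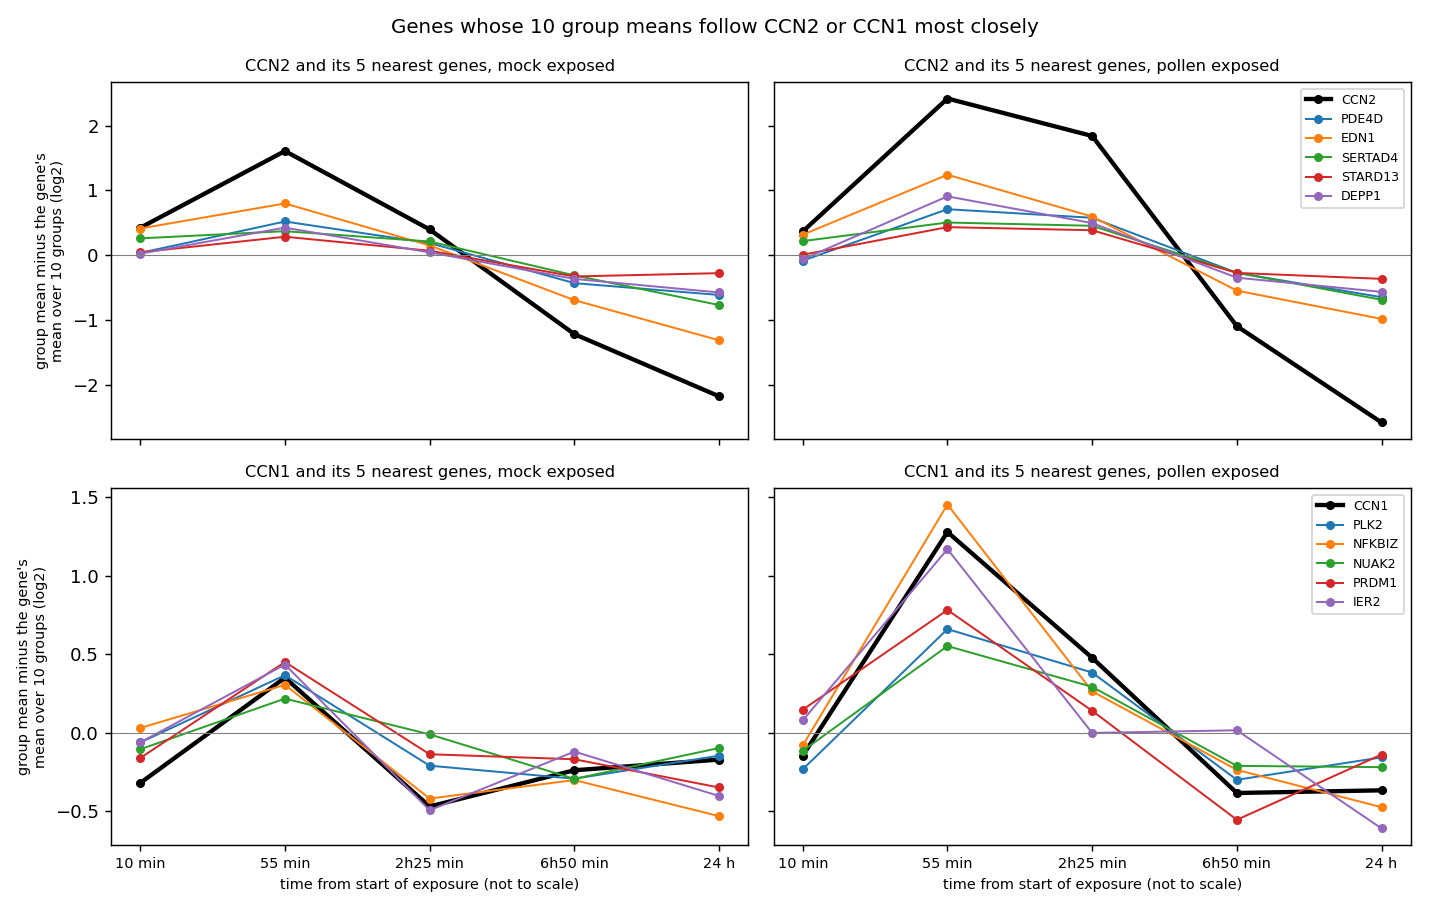
Group means of CCN2 (upper panels) and CCN1 (lower panels), in black, with those of their 5 nearest genes, each minus the gene's mean over the 10 groups (log2, y axis), at the 5 times (x axis, evenly spaced) after mock exposure (left) and pollen (right). All curves are highest at 55 min in both exposures, and the genes near CCN2 are lowest at 6h50 min or 24 h.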

How the data were processed

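RNA of mock exposed and pollen exposed BEAS-2B was labelled with Cy3 and hybridised to 30 one-colour Agilent arrays, 3 per group. The authors extracted the deposited intensity values with Agilent Feature Extraction 11.0.1.1 (the submitters' processing notes), which subtracts background from each spot. The authors also deposited a log2 table, whose scale and centring are not given in the sources used here. Its columns were compared with the arrays for the 29 arrays of the same design, and 23 of 29 columns matched the array they name best. The other 6, all of 24 h, matched another array of their own group best.

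Control spots and outlier flags were left out, spots of a probe were averaged, and log2 signals were scaled to the 75th percentile of the 33873 probes shared by both array designs. Probes well above background on 3 of 3 arrays of a group were tested with limma 3.58.1 in R 4.3.3 over all 10 groups, with Benjamini-Hochberg adjustment over 32102 probes. A probe was called at an adjusted p under 0.05 and at least 1.1-fold, the thresholds of the study. No depth exists for arrays, and their number limits the precision. Gene names were taken from RefSeq accessions for 33536 probes, from symbols for 4384 and as the array gives them for 20281.

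The probe with the highest mean stood for a gene. All members were named, with up to 4 called genes of each list per comparison and the 5 nearest genes of CCN2 and CCN1. F3, TGFB2, NUAK2, FRMD6 and BIRC5 at 55 min and 2h25 min, and CCN5 and EDN1, were chosen after their values were seen. A gene of the lists that the rule would name is not reported here. The members and lists were chosen with earlier results of these data known. Deviations of same-numbered mock and pollen arrays correlated at 0.399 to 0.46 at 10 min, 0.493 to 0.643 at 2h25 min and 0.299 to 0.747 at 24 h, so same-numbered arrays deviated alike there. Arrays of different numbers were not compared in this way. They ran from -0.07 to 0.40 at 55 min and from -0.03 to 0.23 at 6h50 min. The test was tried on simulated data. Alternatives were other scalings, background corrections and filters, the authors' table, array weights, slide and replicate number as blocks, and leaving out arrays.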

Additional observations from a re-analysis of the deposited data

Results flagged for a closer look

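The pollen minus mock difference of CCN2 lay in opposite directions at different times, with no overlap between the groups at each. It was 0.81 at 55 min and 1.44 at 2h25 min, where every pollen array was higher, and -0.40 at 24 h, where every pollen array was lower. LATS2 differed by 0.21 at 55 min, with every pollen array higher, and by -0.36 at 6h50 min, with every pollen array lower. Within slide 4 the LATS2 difference at 55 min was 0.10, below its standard error of 0.136. These changes of direction were not tested, since 55 min and 2h25 min chose CCN2. CCN1 at 10 min, 55 min and 2h25 min and AMOTL1 at 6h50 min also did not overlap between the exposures. The share of all probes without overlap is not given here.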

How the results depend on the processing

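Counts here are of members called, with CCN2 left out where 55 min or 2h25 min arrays enter. The pollen effect at 6h50 min against 10 min and at 24 h against 6h50 min, and pollen against mock at 10 min, gave 0 members under every setting tried. Pollen against mock gave 1 member with array weights at 6h50 min (LATS2) and 1 at 24 h (ANKRD1), and 0 under all other settings. These weights ran from 0.128 to 8.86 over the arrays. No named call changed sign under any setting. The pollen minus mock difference of CCN2 at 55 min was 0.40 with the 75th percentile taken over each array's own probes and 0.39 with no scaling, and 0.65 with slide as a block or within slide 4. The median of all probes differed by -0.37 and -0.43 under the first 2 of these settings. At 2h25 min the CCN2 difference was 1.60 with no scaling, 1.31 with array weights and 1.24 within slide 5. Leaving out each array gave 0.72 to 0.88 at 55 min and 1.39 to 1.52 at 2h25 min.

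In mock exposed cells, 10 min to 55 min gave 3 members with array weights and 1 with weights estimated gene by gene, an estimate added after seeing the data. 55 min to 2h25 min gave 1 with array weights and 1 with the authors' table. 2h25 min to 6h50 min gave 0 with own probes, with dim areas left out and with only the arrays of the groups compared, 2 with the authors' table and 8 with no scaling. 6h50 min to 24 h gave 2 with own probes, and 7 with normexp under quantile or percentile scaling, with the authors' table and with array weights. 2h25 min to 24 h gave 1 with own probes, with no scaling and with only the groups compared, 5 with array weights and 4 with weights gene by gene. In pollen exposed cells, 10 min to 55 min gave 0 with own probes, slide as a block and only the groups compared, and 1 with no scaling, the authors' table and no filter on dim probes. 55 min to 2h25 min gave 1 with quantile normalization, with normexp and quantile normalization and with weights gene by gene, and 2 with array weights. 2h25 min to 6h50 min gave 0 with own probes, 8 with no scaling and 1 with only the groups compared, and 2h25 min to 24 h gave 1 with own probes. From 6h50 min to 24 h, the calls of AXL in both exposures and of CCN2 in pollen exposed cells held under all 13 settings tried besides leaving out arrays, as did ANKRD1 in pollen exposed cells from 2h25 min to 24 h under all 14. With own probes and with only the groups compared, CCN1 in pollen exposed cells from 10 min to 55 min was not called (1.01 and 1.43). The cause of these differences was not tested.

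Leaving out each array gave 0 to 1 members in mock exposed cells from 10 min to 55 min, 0 to 1 from 2h25 min to 6h50 min, 2 to 5 from 6h50 min to 24 h and 2 to 3 from 2h25 min to 24 h. After pollen it gave 1 to 2 from 10 min to 55 min, 2 to 3 from 2h25 min to 6h50 min, 4 from 6h50 min to 24 h and 3 from 2h25 min to 24 h. With the replicate number as a block, AMOTL2 from 10 min to 55 min in pollen exposed cells was at 0.60 and not called (adjusted p = 0.0575), which left 2 members. The block changed no other call. Dim probes and 3 arrays per group limit what can be detected.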
